A study of Homo sapiens with 8 samples.

Results

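The carbonic anhydrases are zinc enzymes that interconvert carbon dioxide and bicarbonate. Of the 10 family genes examined (CA2, CA3, CA4, CA5B, CA8, CA9, CA11, CA12, CA13 and CA14), 8 were found by their symbol among the 30434 genes of the count table. CA3 and CA4 were not analysed here. RNA was sequenced from SKBR3, an established line of human breast cancer cells with amplified ERBB2. There were 4 libraries of control SKBR3 cells, whose genotype is given as WT, and 4 of SKBR3 cells with FOXA1 knockdown. The knockdown cells were a stable line made with lentiviruses carrying 3 short hairpin RNAs against FOXA1, a forkhead factor that opens chromatin for hormone receptors in luminal breast cells. Both were grown in the same medium. Whether the controls carried a vector, and whether the replicates were separate cultures, is not given in the sources used here, so p-values measure the spread between these libraries, which may be technical.

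The family is divided by where its proteins sit and by whether they are active. CA9, CA12 and CA14 span the plasma membrane with the active site outside the cell, where hydration of carbon dioxide sets the pH at the surface and works with bicarbonate transporters and proton exporters. CA2 and CA13 are enzymes of the cytosol, and CA5B works in mitochondria. CA8 and CA11 lack activity because a zinc-binding residue is replaced, and are known as carbonic anhydrase-related proteins. In breast tissue CA12 is known as an oestrogen-responsive marker of luminal cells, and CA9 is a classic target of the hypoxia-inducible factors (HIF).

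Totals ran from 19087878 to 23786684 counts per library. FOXA1 itself had 4071 to 4397 counts in the control libraries and 83 to 92 in the knockdown libraries (log2 fold change -5.60, SE 0.063, edgeR adjusted p 3.19e-30). Control replicate 3 differed more from the other controls (chi-square per degree of freedom 4.81 to 6.21) than those did from each other (2.16 to 2.38). Without it the same 3 carbonic anhydrases passed the threshold, with log2 fold changes of -9.74 (CA12), -2.06 (CA8) and 0.30 (CA5B). The luminal markers KRT8, KRT18, KRT19, KRT7, EPCAM and ERBB2 together made up 18290 to 20372 counts-per-million (CPM) in control and 11485 to 12376 in knockdown. They were divided: ERBB2 (7308 to 1340 CPM), KRT19 (2645 to 723) and KRT7 (2202 to 637) fell, while KRT8 (4519 to 5619), KRT18 (2312 to 3457) and EPCAM (179.4 to 226.2) rose. Markers of leukocytes summed to at most 1.80 CPM and those of red blood cells to at most 0.215 CPM in any library. Fibroblast markers summed to between 5.27 and 6.98 CPM in control and between 10.8 and 11.9 in knockdown; of 3 tested, COL3A1 (0.0222 to 4.32 CPM) and PDGFRB (0.410 to 2.83) rose and COL1A1 fell (5.38 to 4.33). Endothelial markers summed to between 19.8 and 22.4 CPM over all libraries; VWF fell from 5.22 to 0.845 CPM and CDH5 rose from 16.1 to 20.1, while PECAM1 had at most 0.150 CPM on average in a group. Basal markers summed to between 3.25 and 4.23 CPM in control and between 9.10 and 10.4 in knockdown. Of the 4 basal markers tested, TP63 rose (0.147 to 7.86 CPM), ACTA2 (1.33 to 0.0674) and KRT17 (1.22 to 0.180) fell, and KRT5 was not called. The part of these markers in the results was not tested.

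Levels are given as the mean ± SD over the 4 libraries of a group (n = 4) in CPM. A fold change is knockdown against control, and its adjusted p is from edgeR's quasi-likelihood test over all genes tested.

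Of the 8 carbonic anhydrases found, 5 had enough counts to be tested. At an adjusted p under 0.05, 2 were lower in knockdown (CA12 and CA8) and 1 was higher (CA5B), while CA11 and CA14 did not pass the threshold. This is 60.0% of the 5, against 77.1% of all 16430 genes tested, of which 37.7% were lower and 39.4% higher. CPM did not overlap between the groups for 3 of the 5 tested carbonic anhydrases, against 72.0% of all genes tested. With so large a background, the count of calls says little about the family, and the sizes of the changes carry the description. CA2, CA9 and CA13 were below the filter, and their counts are given in full.

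**Figure D1:**
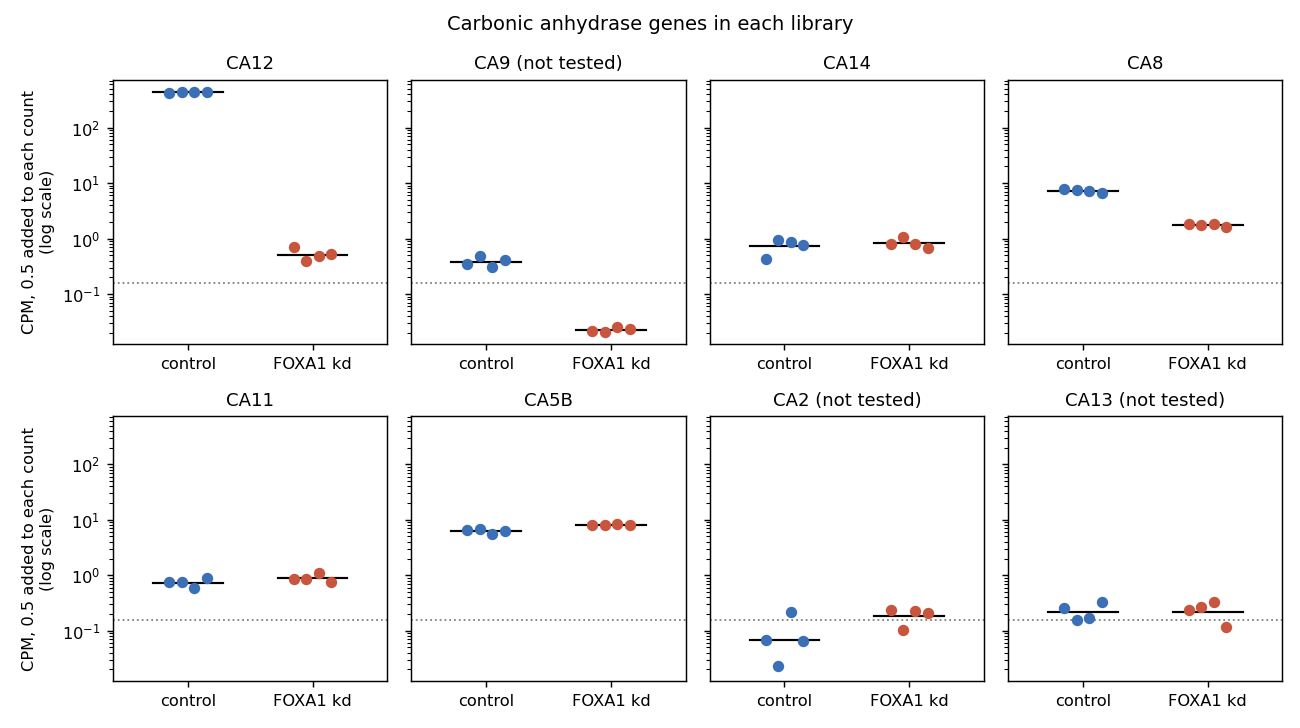
CPM of each carbonic anhydrase in each of the 8 libraries on a log scale, with 0.5 added to each count; points are libraries, bars are geometric means of 4, and the dotted line marks 3 counts in a library of average size. CA12 moved from 435.7 to 0.504 CPM, CA9 from 0.362 CPM to no counts, and CA8 from 7.30 to 1.75 CPM, while CA11, CA14, CA2 and CA13 overlapped between groups.

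CA12 carried nearly all of the family's RNA in control cells and almost none after FOXA1 knockdown. It had 9347, 9757, 9207 and 10090 counts in controls 1 to 4, and 16, 9, 9 and 11 in knockdown libraries 1 to 4. All knockdown libraries lay far below every control library. The level went from 435.7 CPM ± 6.17 to 0.504 CPM ± 0.131, an 864.6-fold fall to 0.116% of the control level. On the log2 scale the fold change was -9.74 (SE 0.176, edgeR adjusted p 2.8e-32), and an exact two-sided permutation test of CPM gave p = 0.0286, the lowest possible with groups of 4. Among the 16430 genes tested, 17 had a lower fitted fold change, which makes CA12 number 18. Among 13278 tested protein-coding genes it ranked 300 by CPM in control and 12743 in knockdown. In bulk RNA, fewer cells that express a gene and less RNA per cell cannot be told apart.

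CA12 (ENSG00000074410.14) lies on chromosome 15 from 63321378 to 63382161 on the minus strand (GENCODE 29, GRCh38). The nearest tested genes on either side also fell, though less. LINC02568, a long noncoding RNA gene on the plus strand that begins 7.97 kb beyond the CA12 start and was singled out after its value was seen, had 188, 148, 150 and 186 counts in control and 5, 5, 4 and 6 in knockdown. Its level fell from 7.62 CPM ± 0.855 to 0.225 CPM ± 0.0355 (log2 fold change -5.05, SE 0.127). On the other side, 12.3 kb away, APH1B, a subunit of gamma-secretase, fell from 4.46 CPM ± 0.314 to 0.962 CPM ± 0.127 (log2 fold change -2.20, edgeR adjusted p 1.95e-12). USP3, a ubiquitin protease gene 122.3 kb beyond the start, fell by 0.62 on the log2 scale. Of the 11 other genes tested within 300 kb of CA12, 9 were called lower and 0 higher. RAB8B was among the genes not called (log2 fold change -0.13, SE 0.108). Over the 50 nearest tested genes, which reached 3.09 Mb away, the median log2 fold change was -0.23, with 27 called lower and 14 higher. Of all genes tested, 37.7% were called lower and 39.4% higher, with a median of 0.02.

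**Figure D2:**
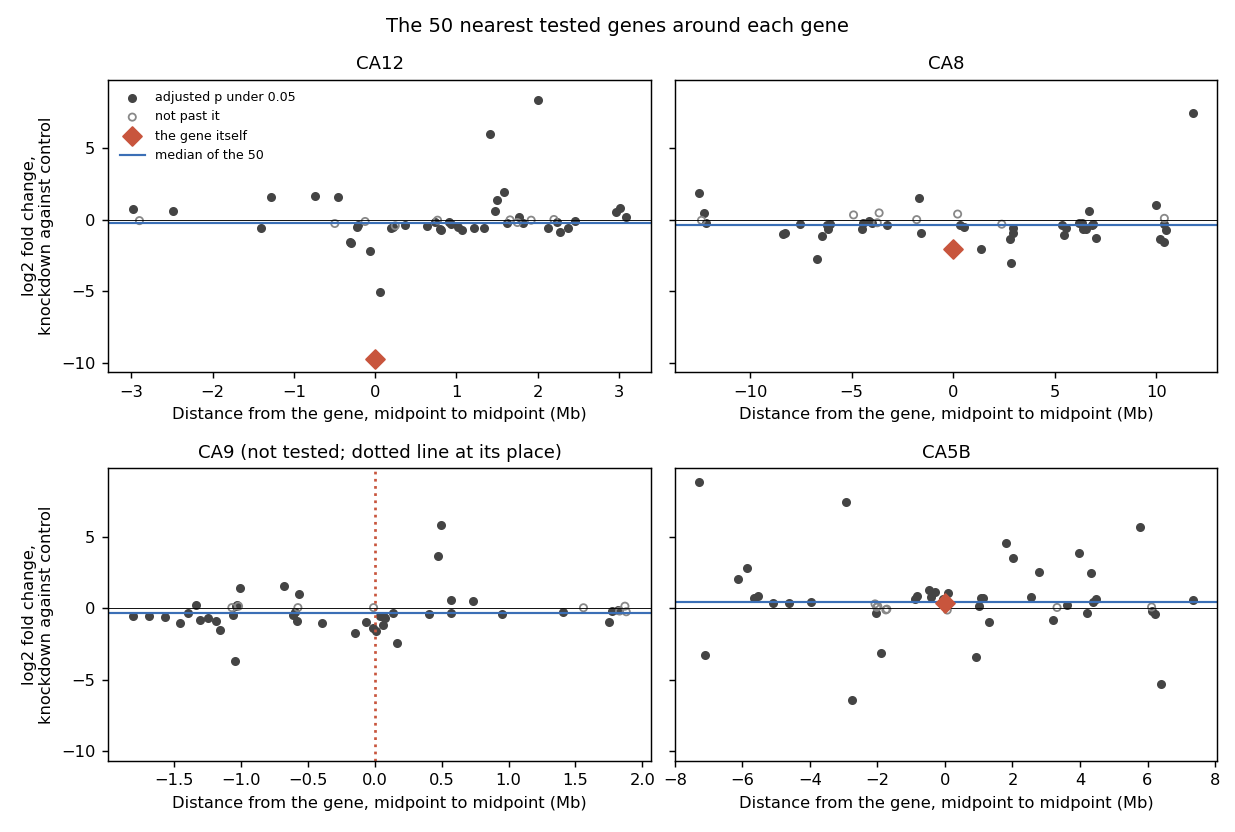
Log2 fold changes (knockdown against control) of the 50 tested genes nearest to CA12, CA8, CA9 and CA5B, against distance between gene midpoints in Mb. Filled points have an adjusted p under 0.05, the diamond is the gene itself and the blue line the median of the 50. CA9 was not tested, so its panel has a dotted line at its place and no diamond. CA12 at -9.74 lies below all of its neighbours, the lowest of which was at -5.05, while CA5B at 0.37 lies near the median of its neighbours at 0.47.

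The RefSeq promoter table (GRCh38.p14) held CA12, CA9, CA14 and CA5B among the members. The 250 bases before each start were searched on both strands for the forkhead letters TGTTTAC and TATTTAC, the HIF core letters ACGTG and GCGTG, and the palindromic oestrogen response element. Neither forkhead motif nor the oestrogen response element was found in these 4 windows; they were found in 2.98%, 2.39% and 0.0399% of 35116 windows of the same length. This says only that those letters are not in these windows. ACGTG was found in 18.5% and GCGTG in 32.2% of all windows. The matches in CA12 and CA9 are shown because, of the 4 genes with a window, these were lower in knockdown, and the CA5B window because it held 6 copies of GCGTG in the gene that was higher. Capitals mark the matched letters, which read CACGC and CACGT where the match is on the other strand.

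CA12, 30 bases around its GCGTG match, chr15:63382063-63382092, minus strand: gcggatctcaccCACGCctgccagcagctc

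CA9, 30 bases around its ACGTG match, chr9:35673898-35673927, plus strand: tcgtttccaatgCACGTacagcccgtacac

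CA5B, all 250 bases before its start, chrX:15738020-15738269, plus strand: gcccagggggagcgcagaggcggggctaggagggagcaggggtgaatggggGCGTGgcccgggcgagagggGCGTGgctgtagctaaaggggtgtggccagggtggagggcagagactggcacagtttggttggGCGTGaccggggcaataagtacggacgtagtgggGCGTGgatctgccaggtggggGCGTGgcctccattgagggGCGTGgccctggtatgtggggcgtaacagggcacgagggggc

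The match in CA9 began 18 bases before the RefSeq start, close to where the hypoxia response element of this gene is known to lie, and that in CA12 began 234 bases before it. Both stretches lie inside an exon of a longer transcript of the same gene in GENCODE 29. A match is a description of the letters, not of binding.

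CA9 was low in control and had no counts after knockdown. It had 7, 10, 6 and 9 counts in controls 1 to 4 and 0 in every knockdown library, so the groups did not overlap. The control level was 0.362 CPM ± 0.0748, and in knockdown an undetected gene could still reach 0.153 CPM, the worth of 3 counts in the smallest library, taken as the floor. Set against 3 counts per knockdown library, CA9 was at least 2.67-fold lower (exact two-sided permutation p = 0.0286). CA9 was below the filter; with no filter on low counts its edgeR adjusted p was 9.76e-09. The floor covers counting error only.

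CA9 (ENSG00000107159.13, chromosome 9, 35673856 to 35681159, plus strand) overlaps ARHGEF39 by 2011 bp on the opposite strand. ARHGEF39 had 17.6 CPM ± 0.941 in control and 18.3 CPM ± 0.812 in knockdown, and its groups overlapped. TPM2, which codes for a tropomyosin and ends 0.833 kb beyond CA9, fell from 3.26 CPM ± 0.353 to 1.06 CPM ± 0.0822 (log2 fold change -1.62). CCDC107 on the other side fell by 1.40 on the log2 scale.

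CA14, the remaining membrane enzyme, showed no difference larger than its spread. It had 9, 20, 18 and 17 counts in controls 1 to 4, and 18, 26, 15 and 14 in knockdown libraries 1 to 4. The groups overlapped, with control replicate 1 the lowest of all libraries. CA14 stood at 0.727 CPM ± 0.222 in control and 0.810 CPM ± 0.178 in knockdown (log2 fold change 0.17, edgeR adjusted p 0.585). The 95% confidence interval of the difference in mean log2 CPM, from -0.52 to 0.90, includes both a fall and a rise. The fold change was -0.03 without control replicate 1 and 0.29 without control replicate 2. CA14 (ENSG00000118298.12, chromosome 1, 150257159 to 150265078, plus strand) lies 21.0 kb from ANP32E, a histone chaperone gene that rose from 43.9 CPM ± 3.06 to 270.4 CPM ± 11.7. APH1A, on the other side and only 0.321 kb away, went from 137 CPM ± 3.54 to 152.3 CPM ± 5.94 (log2 fold change 0.15).

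Of the related proteins without enzyme activity, CA8 fell and CA11 did not pass the threshold. CA8 had 172, 162, 154 and 154 counts in controls 1 to 4, and 43, 43, 35 and 35 in knockdown libraries 1 to 4. Every knockdown library was below every control library. The level fell from 7.30 CPM ± 0.508 to 1.75 CPM ± 0.0899, or to 24% of control. The log2 fold change was -2.06 (SE 0.0629, edgeR adjusted p 3.76e-14; exact two-sided permutation p = 0.0286). CA8 (ENSG00000178538.10, chromosome 8, 60187347 to 60281412, minus strand) stands in a stretch with few tested genes. The 50 nearest reached 12.5 Mb away, with 36 called lower and 6 higher, beside 37.7% lower and 39.4% higher over all genes tested. Their median log2 fold change was -0.38, against 0.02 over all genes tested. With an offset for that regional shift, the log2 fold change of CA8 was -1.68.

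CA8 is known to bind the inositol trisphosphate receptor ITPR1, a channel that releases calcium from the endoplasmic reticulum, and to lower its affinity for its ligand. ITPR1 also fell, from 31.4 CPM ± 0.505 to 6.31 CPM ± 0.705 (log2 fold change -2.31, SE 0.082, edgeR adjusted p 4.63e-20). The other receptors of this kind went different ways. ITPR3 fell from 284.4 CPM ± 16.4 to 169.6 CPM ± 8.75, and ITPR2 rose from 26.4 CPM ± 1.51 to 36.8 CPM ± 1.76 (edgeR adjusted p at most 1.21e-08).

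CA11 is known as a secreted partner of neurexins. It had 16, 16, 12 and 20 counts in controls 1 to 4, and 20, 20, 21 and 16 in knockdown libraries 1 to 4, with overlap between the groups. CA11 stood at 0.723 CPM ± 0.120 in control and 0.870 CPM ± 0.141 in knockdown (log2 fold change 0.25, edgeR adjusted p 0.352). The difference in mean log2 CPM had a 95% confidence interval of -0.13 to 0.66. CA11 (ENSG00000063180.9, chromosome 19, 48637942 to 48646312, minus strand) ends 0.504 kb from the circadian factor gene DBP, which rose from 12 CPM ± 0.755 to 28.2 CPM ± 0.793 (log2 fold change 1.23). The neurexin gene NRXN3 rose from 12.6 CPM ± 1.43 to 18.9 CPM ± 1.05 (edgeR adjusted p 1.43e-07). Of the 6 known partner genes of CA8 and CA11, 5 were tested, with 2 lower, 3 higher and a median log2 fold change of 0.48. This stands beside 37.7% lower, 39.4% higher and a median of 0.02 over all genes tested.

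The mitochondrial enzyme gene CA5B rose slightly. It had 142, 150, 114 and 145 counts in controls 1 to 4, and 186, 192, 167 and 172 in knockdown libraries 1 to 4. In CPM every knockdown library (7.87 to 8.50) was above every control library (5.41 to 6.81). The mean went from 6.24 CPM ± 0.599 to 8.06 CPM ± 0.300, a 1.29-fold rise with a log2 fold change of 0.37 (SE 0.0759, edgeR adjusted p 0.000888; exact two-sided permutation p = 0.0286). The rise was not larger than that of its surroundings on chromosome X. The 50 nearest tested genes had a median of 0.47, and with that shift offset CA5B was at -0.10 (edgeR adjusted p 0.316).

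CA5B (ENSG00000169239.13, chromosome X, 15688830 to 15788409, plus strand) overlaps its pseudogene copy CA5BP1 by 14895 bp on the same strand, so the division of reads between them is uncertain. CA5BP1 rose from 5.77 CPM ± 0.435 to 8.88 CPM ± 0.872 (log2 fold change 0.63, edgeR adjusted p 1.96e-06), and its log2 fold change was 0.17 with the regional shift offset (edgeR adjusted p 0.101). Together the pair rose from 12 CPM ± 0.834 to 16.9 CPM ± 0.827 (exact two-sided permutation p = 0.0286). CA5B made up 51.9% ± 2.73 of their counts in control and 47.7% ± 2.90 in knockdown, which did not differ beyond the spread (exact two-sided permutation p = 0.114).

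The cytosolic enzymes were near the limit of detection. CA2, the most active and widespread form in many tissues, had 1, 0, 4 and 1 counts in controls 1 to 4, and 5, 2, 4 and 4 in knockdown libraries 1 to 4 (exact two-sided permutation p = 0.0857 on CPM). CA13 had 5, 3, 3 and 7 counts in control and 5, 6, 6 and 2 in knockdown (exact two-sided permutation p = 0.857 on CPM). The groups overlapped for both genes, and with no filter on low counts neither passed the threshold (edgeR adjusted p 0.167 for CA2 and 0.958 for CA13). No difference was detected in these few counts. CA13 (85220587 to 85284073) and CA2 (85463852 to 85481493) lie in one cluster on chromosome 8.

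Levels of different genes were compared as CPM per kilobase of annotated exon. In control the order was CA12 (59.6 ± 0.843), CA8 (1.26 ± 0.0879), CA5B (0.733 ± 0.0703), CA11 (0.348 ± 0.0576), CA9 (0.217 ± 0.0448), CA14 (0.190 ± 0.0580), CA13 (0.0366 ± 0.0142) and CA2 (0.0328 ± 0.0390). CA9 and CA14 overlapped between libraries, as did CA13 and CA2, and the other neighbours in that order did not. In knockdown CA5B came first at 0.946 ± 0.0352, followed by CA11 at 0.419 ± 0.0679, CA8 at 0.302 ± 0.0155 and CA14 at 0.211 ± 0.0466, with no overlap between neighbours. CA12 stood at 0.0689 ± 0.0179 CPM per kilobase, overlapping CA2 above it and CA13 below it.

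CA12 thus made up 95.5% ± 0.164 of the family's length-scaled RNA in control and 3.35% ± 0.889 in knockdown, where CA5B made up 45.8% ± 2.02, CA11 20.2% ± 1.96 and CA8 14.6% ± 0.607. The summed CPM of the 8 genes went from 451.4 ± 6.26 to 12.4 ± 0.557. Without CA12 the sum was 15.6 ± 0.760 in control and 11.9 ± 0.572 in knockdown. The highest knockdown library, at 12.6 CPM, was below the lowest control library, at 14.8 CPM. No test is given for these sums.

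**Figure D3:**
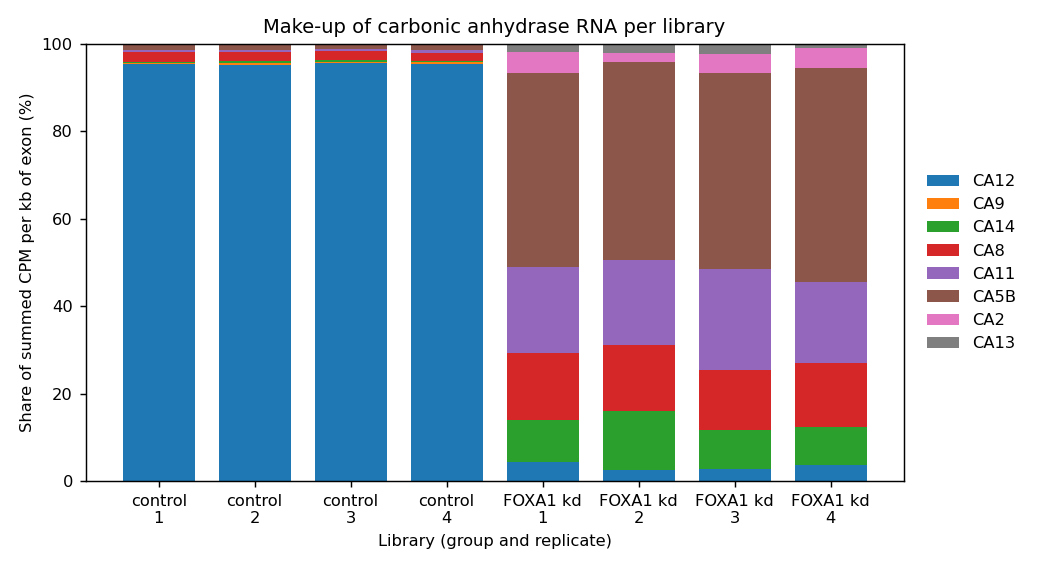
Share of each carbonic anhydrase in the family's summed CPM per kilobase of exon, in percent, for each of the 8 libraries. CA12 fills 95.3% to 95.7% of each control bar and 2.48% to 4.46% of each knockdown bar, where CA5B takes 44.5% to 48.8%.

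The other family genes, with the CA-like receptors and the CA5B pseudogene, made a list of 7, of which 2 were tested. Both were higher (PTPRG and CA5BP1), beside 39.4% of all genes tested. The remaining enzymes were hardly detected. CA1 had at most 1 count in a library, CA5A at most 2, CA6 at most 3 and CA7 at most 4. Receptor phosphatases that carry an inactive carbonic anhydrase-like domain outside the cell changed from this low state. PTPRG had 2, 0, 0 and 1 counts in controls 1 to 4, and 324, 424, 312 and 334 in knockdown libraries 1 to 4. It reached 15.6 CPM ± 1.48 in knockdown, at least 114.6-fold higher than 3 counts per control library (edgeR adjusted p 4.74e-21). PTPRG-AS1, which overlaps it by 36749 bp on the opposite strand, fell from 3.80 CPM ± 0.662 to 1.27 CPM ± 0.204. The use of strand in counting is not given in the sources used here. PTPRZ1, the other such receptor, had 0 counts in every control library and 9, 9, 3 and 4 in knockdown libraries 1 to 4, at least 2.00-fold higher against the same floor.

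The genes whose levels were most like those of CA12 over the 8 libraries were found by the root mean square difference in log2 CPM. The closest was KITLG, the ligand of the KIT receptor, with a difference of 0.451. It had 7031 to 9299 counts in control and 7 or 8 in knockdown. BCAS1 (difference 0.593), the ETS factor SPDEF (0.875) and the calcium-binding protein gene S100A6 (0.973) were also among the 5 closest. Their log2 fold changes lay between -10.14 and -8.94, each with an edgeR adjusted p of at most 5.44e-16. With only 2 groups, likeness over these libraries means a like level in each group.

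CA12 is usually studied beside the oestrogen receptor and luminal genes, of which 15 were found and 12 tested. Of these, 7 were lower and 4 higher, beside 37.7% and 39.4% of all genes tested, with a median log2 fold change of -2.76 against 0.02 over all genes tested. SPDEF fell from 200.3 CPM ± 17.3 to 0.398 CPM ± 0.189, MLPH, which links vesicles to myosin, from 262.2 CPM ± 8.88 to 2.88 CPM ± 0.393, and AGR2, a secretory pathway isomerase, from 19.4 CPM ± 0.657 to 0.429 CPM ± 0.0708. XBP1, a factor of secretory cells, fell by 3.65 on the log2 scale. GATA3, a luminal factor that is known to act with FOXA1, rose from 4.29 CPM ± 0.426 to 35.9 CPM ± 1.92. The oestrogen receptor gene ESR1 was already low in control at 1.36 CPM ± 0.174 and was at least 10.1-fold lower in knockdown. ESR1 was named because CA12 is known as its target. GREB1, also in this list, went the other way, from 2.34 CPM ± 0.0445 to 6.38 CPM ± 0.572 (log2 fold change 1.45).

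The HIF lists were set beside CA9. Of 9 tested regulators, 3 were lower and 3 higher (median log2 fold change -0.07), where 77.1% of all genes tested were called. EPAS1 (HIF-2 alpha) fell from 437.3 CPM ± 5.89 to 184.0 CPM ± 6.67 and HIF1A from 126.1 CPM ± 12 to 101.5 CPM ± 4.96. The prolyl hydroxylase gene EGLN3, itself a HIF target, fell by 3.41 on the log2 scale, while VHL, whose product marks HIF for degradation, rose by 0.61 and the HIF partner ARNT by 0.53. With the regional shift offset, 6 regulators were called lower and 3 higher, beside 6209 lower and 6246 higher of all 16430 genes tested.

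Of 24 HIF target genes, all of them tested, 14 were lower and 7 higher, with a median of -0.34, beside 37.7% lower, 39.4% higher and a median of 0.02 over all genes tested. DDIT4, an inhibitor of mTORC1, fell from 184.5 CPM ± 4.47 to 11.4 CPM ± 0.129, NDRG1 from 226.5 CPM ± 7.56 to 44.2 CPM ± 1.05, and the glucose transporter gene SLC2A1 from 485.9 CPM ± 14.3 to 112 CPM ± 1.94. BHLHE40 and ANGPTL4 fell by 1.69 and 1.97 on the log2 scale. The list was not uniform. PGK1 (-0.03), BNIP3 (-0.01) and KDM3A (0.04) were the 3 members not called, and ADM, singled out after its value was seen, rose by 1.41.

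Bicarbonate transporters carry the product of the reaction across membranes. Their list was drawn from the SLC4 and SLC26 gene families with CFTR, so a listed gene need not itself carry bicarbonate. It included both directions. Of 16 genes found 9 were tested, of which 7 were higher and 2 lower, beside 39.4% higher and 37.7% lower over all genes tested. Their median log2 fold change was 0.50, against 0.02 over all genes, and the rises reached down to 0.17 for SLC4A2. SLC4A11 rose from 20.7 CPM ± 2.15 to 97.1 CPM ± 4.47, the sodium-dependent exchanger gene SLC4A8 from 10.0 CPM ± 0.872 to 30.7 CPM ± 1.80, and the sodium bicarbonate cotransporter gene SLC4A7 from 54.2 CPM ± 1.89 to 76.6 CPM ± 4.04. SLC4A3 rose by 0.66 on the log2 scale. SLC4A5 fell from 1.46 CPM ± 0.131 to 0.483 CPM ± 0.171, and the other call in that direction was SLC4A10, at least 8.37-fold lower. With the filter raised to a mean of 50 counts, SLC4A5 (mean 21.6) and SLC4A10 (mean 12.6) were no longer tested. That 0 transporters were lower there was thus fixed by the filter. In that setting 6 transporters were called higher, beside 5206 genes higher and 5073 lower over the whole table.

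Proton and lactate exporters were divided, with 5 of 12 tested genes lower and 5 higher (median -0.11), again beside 37.7% lower and 39.4% higher over all genes. SLC16A1, the lactate and proton cotransporter MCT1, rose from 2.50 CPM ± 0.436 to 170.1 CPM ± 1.84 (log2 fold change 6.08, edgeR adjusted p 2.49e-29). Lower were EMB, a chaperone of lactate transporters, from 17.1 CPM ± 1.5 to 1.52 CPM ± 0.167, and the sodium-proton exchanger gene SLC9A2, from 43.0 CPM ± 1.53 to 9.65 CPM ± 0.468. SLC9A8 fell by 0.66 on the log2 scale. With no filter on low counts, all 18 genes found were tested, and 8 were higher and 6 lower. Over the whole table of 30434 genes, 7874 were higher and 7154 lower in that setting.

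**Figure D4:**
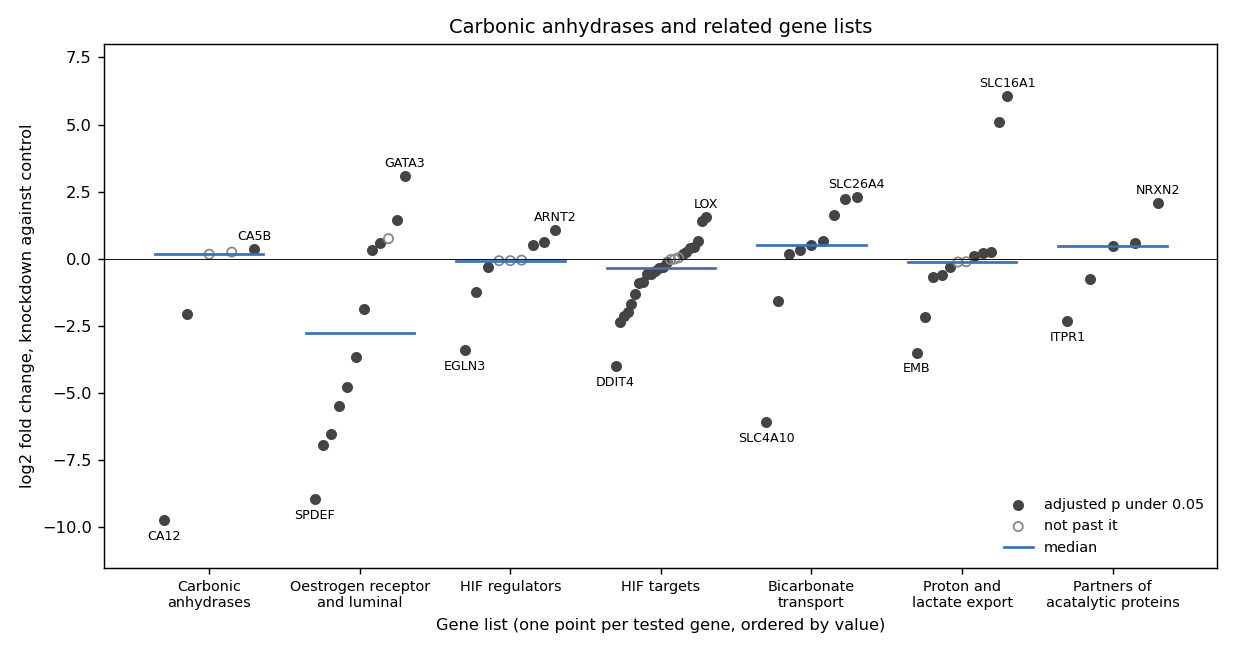
Log2 fold changes (knockdown against control) of the tested carbonic anhydrases and of 6 related gene lists, 1 point a gene, ordered by value within a list; filled points have an adjusted p under 0.05, blue bars are medians and the lowest and highest gene of each list is named. CA12 at -9.74 is the lowest point shown, SPDEF at -8.94 the next, and SLC16A1 at 6.08 the highest; genes such as SLC4A10 and ESR1, at most 3 counts in each knockdown library, are drawn at a fitted value that depends on the prior count.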

How the data were processed

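Trizol-extracted RNA was read as pairs of 101 bases on a NextSeq 550, per the labels' protocols. The authors deposited unnormalized counts per gene, held as whole numbers; the submitters' processing notes name FastQC, Salmon 1.9, DESeq2 3.16 and hg38 without saying what each did, so the values may be estimated counts rounded by the authors. The annotation release and the use of strand are not given in the sources used here.

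Groups came from the sample titles and columns were matched by name. The whole table was fitted in R 4.3.3 with edgeR 4.0.16: filterByExpr (minimum 10 counts, total 15), which kept 16430 of 30434 genes, TMM factors between 0.965 and 1.04, robust quasi-likelihood tests and Benjamini-Hochberg adjustment over all genes tested, with a threshold of 0.05. CPM is counts-per-million of the TMM-scaled total. SEs and 95% intervals come from log2 CPM with 0.5 added to each count, with the spread pooled over groups. A group with at most 3 counts in each library was set at 3 counts per library. Single genes had an exact two-sided permutation test over 70 divisions. Positions and exon lengths are from GENCODE 29, found for 29358 genes by identifier; the annotation behind the counts may differ. Promoters are from RefSeq (GRCh38.p14).

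The members, lists and alternatives were chosen with earlier results of these data known. Named genes are the members, up to 5 genes of each list with the largest called change and a mean of at least 20 counts, the 5 genes nearest to CA12, overlapping genes and nearest tested neighbours; a few genes that the rule names are not reported here. On simulated counts for 16430 genes, 195 of 200 changed genes (97.5%) were recovered, with 8 false calls among 203. The changed genes had a mean of at least 20 counts, and all genes shared the same dispersion. With so few genes changed, against 77.1% called in the data, the simulation cannot test the scaling. Alternatives were other scalings and filters, DESeq2 1.42.0, limma voom (limma 3.58.1), no robust estimation, a replicate block, an offset for the median of the 50 nearest tested genes, and leaving out each library.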

Additional observations from a re-analysis of the deposited data

Results flagged for a closer look

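Dixon's ratio, the gap to the nearest value over the whole range, was taken for the highest and lowest library. This covered 78 groups of 4 libraries, for the carbonic anhydrases and the genes named from the related lists. The ratio passed the 95% critical value in 3, where chance gives about 3.9 (1 in 20). CA5B was high in knockdown replicate 3, at 8.50 CPM against 7.87 to 7.96 in the others; without that library its log2 fold change was 0.34. VHL was low in knockdown replicate 1, at 74.8 CPM against 76.8 to 77.1. SPDEF was high in knockdown replicate 1, at 0.680 CPM (16 counts) against 0.278 to 0.328. Genes named only as neighbours or for likeness to CA12 were outside these groups. Among those, KITLG stood at 333.9 CPM in control replicate 3 against 400.7 to 408.8 in the other controls.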

How the results depend on the processing

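CA12 and CA8 stayed lower and past the threshold under all 18 alternatives, with log2 fold changes from -9.92 to -9.51 and from -2.11 to -1.68. CA5B stayed higher under 17 of them (0.30 to 0.45); with the regional offset it was -0.10, so 0 members were called higher, and CA11 was also -0.10 there. Neither gene passed the threshold under that offset. CA14 ranged from -0.03 (without control replicate 1) to 0.29 as single libraries were left out; leaving out knockdown replicate 2 gave -0.00008. The summed CPM of the members in control was 451.4, but 442.2 under upper-quartile scaling and 438.4 scaled by library size alone. With no filter on low counts, CA9 was also called lower, so 3 members were. The replicate number shared by the titles did not pair the libraries: correlations of deviations between same-numbered libraries were 0.02, 0.0563, -0.0307 and -0.00064. The fit with the replicate block called 6091 genes lower and 6362 higher against 6200 and 6475, and the members called were 2 lower and 1 higher as before. Depth limits CA2, CA9, CA13 and also CA11 (12 to 21 counts per library) and CA14 (9 to 26).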
